A study of Rattus norvegicus with 29 samples.

Results

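Cytosolic ribosomal proteins are the protein parts of the ribosomes that translate nuclear messenger RNA. Their mRNAs were followed here in the livers of rats given pentamethylchromanol (PMCol) by mouth. The members are the rows of the deposited value table whose single platform symbol is Rpl or Rps followed directly by a digit, or Rpsa, Rplp0, Rplp1 or Rplp2, without the Rps6k kinases. They came to 261 rows of 27342 and to 74 gene symbols of 14324. Of these, 46 genes carry large subunit names (174 rows) and 28 small subunit names or Rpsa (87 rows). The rule uses names only, but it was chosen with earlier results of these data known. It also takes in Rpl17-ps16, named as a pseudogene, and Rps19bp1, a binding protein of Rps19 that is not part of the ribosome.

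The rats were male Crl:CD Sprague-Dawley animals of 6 to 7 weeks of age. Vehicle was 1% methylcellulose in water, and all animals were dosed by gavage once a day. The vehicle groups held 6 animals at day 8 (7 daily doses) and 6 at day 29 (28 daily doses). PMCol at 2000 mg/kg was given to 6 animals of day 8 and 5 of day 29, and at 200 mg/kg to 6 animals of day 29. The 200 mg/kg dose at day 8 was not analysed here. RNA of the left liver lobe went onto 1 array per animal. The labels call the animals of a group biological replicates, and p-values measure the spread between these animals.

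A cytosolic ribosome has a small subunit, which reads the messenger RNA, and a large subunit, which joins the amino acids. Most mRNAs for ribosomal proteins begin with a 5' terminal oligopyrimidine (TOP) start, a C followed by a run of pyrimidines, through which the growth-signalling kinase complex mTORC1 and the binding protein LARP1 control their translation and stability. Liver exports large amounts of protein and is rich in ribosomes.

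The bases around the start of 8 genes are shown because the TOP start is the best known sequence feature of these genes. They come from RefSeq (assembly GRCr8), where 61 of the 74 genes had an entry. Each line gives 40 bases before the annotated start and 20 from it on, 5' to 3', and capitals mark the pyrimidine run that covers the start. Rplp0, Rpl31, Rps18 and Rps24 rose at 2000 mg/kg on day 8. Rpl35a and Rpl22 have such a run and passed no test against vehicle, Rpl22l1 has no run there and passed on day 8 with a call that most single animals could end (given below), and Rps6 has no run at the annotated base and rose on both days.

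Rplp0 (chr12:46718371-46718430, minus strand): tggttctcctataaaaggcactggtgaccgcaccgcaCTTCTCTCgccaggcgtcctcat

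Rpl31 (chr9:49143071-49143130, plus strand): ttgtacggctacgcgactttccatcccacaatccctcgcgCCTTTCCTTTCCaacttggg

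Rps18 (chr20:4933705-4933764, plus strand): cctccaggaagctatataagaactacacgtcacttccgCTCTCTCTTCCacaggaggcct

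Rps24 (chr16:96477-96536, plus strand): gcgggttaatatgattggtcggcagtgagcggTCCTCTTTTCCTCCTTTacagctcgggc

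Rpl35a (chr11:81235002-81235061, minus strand): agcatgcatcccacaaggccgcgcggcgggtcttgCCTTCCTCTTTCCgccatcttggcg

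Rpl22 (chr5:168117921-168117980, plus strand): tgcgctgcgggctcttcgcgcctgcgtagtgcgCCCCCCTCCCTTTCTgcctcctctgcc

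Rpl22l1 (chr2:113683156-113683215, plus strand): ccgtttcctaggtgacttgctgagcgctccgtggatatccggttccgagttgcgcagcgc

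Rps6 (chr5:106420521-106420580, minus strand): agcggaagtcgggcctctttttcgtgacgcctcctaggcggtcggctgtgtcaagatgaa

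A C followed by at least 4 pyrimidines stood at the annotated start of 23 of the 61 genes (37.7%) and of 2.63% of all 33469 RefSeq promoters. Among the members, 33 began with C, 9 with T (Rps24 among them) and 19 with A or G. With such a match allowed anywhere inside the window from 10 bases before to 15 bases after the annotated start, 45 members (73.8%) and 28.9% of all promoters had one. In the 300 bases from 250 before to 50 after the start, on either strand, GGGCGG was present in 36 members (59.0%, all promoters 33.1%) and CCGGAAG in 18 (29.5%, all 8.75%). GCCATNTT was present in 9 (14.8%, all 6.96%) and TATAAA in 7 (11.5%, all 14.2%). A match is a description of letters and not a site. The match at the annotated start was present in 14 of 32 genes with sequence that rose at 2000 mg/kg on either day (43.8%). It was present in 9 of 29 that rose on neither (31.0%). In the wider window the counts were 25 (78.1%) and 20 (69.0%). Neither difference was tested.

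The values are log2 values centred on each row's median over the 29 animals, so they show differences between animals and not how much of a gene was present. The precision of the stored numbers puts 250 of the 261 member rows (95.8%) at 8 or more before centring, against 28.5% of all rows, so members are mostly bright rows. Many genes have several rows: 55 of the 74 have more than 1, Rpl21 has 21 and Rpl7a has 13. Ribosomal protein genes have many processed pseudogenes, and probes may not separate near-identical copies. Pairs of rows of 1 gene had a median correlation of 0.97 over the animals and pairs of different genes 0.38, so rows of a gene are not independent. Counts are therefore given over rows and also over genes, with the rows of a gene averaged before the same limma fit. Below, a value for a gene is that averaged value. The 26569 averaged rows set beside the gene counts are the 14324 single symbols and, left as they are, 323 rows with several symbols and 11922 with none.

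The mean over the 74 genes was higher at 2000 mg/kg than in vehicle animals on both days. At day 8 it ran from -0.093 to 0.029 with a median of -0.076 in vehicle animals and from 0.012 to 0.18 with a median of 0.10 at 2000 mg/kg. Replicate 5 of the vehicle group was the only vehicle animal above the lowest treated one. At day 29 the vehicle animals ran from -0.091 to -0.0016 with a median of -0.056, and those at 2000 mg/kg stood at -0.016, 0.14, 0.090, 0.073 and 0.13. Of these, 1 animal lay within the vehicle range and 4 above it. The 200 mg/kg animals ran from -0.078 to 0.10 with a median of -0.044, across the vehicle range and beyond it. In bulk liver RNA, a change in the number of cells of a type and a change of RNA per cell cannot be told apart.

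**Figure D1:**
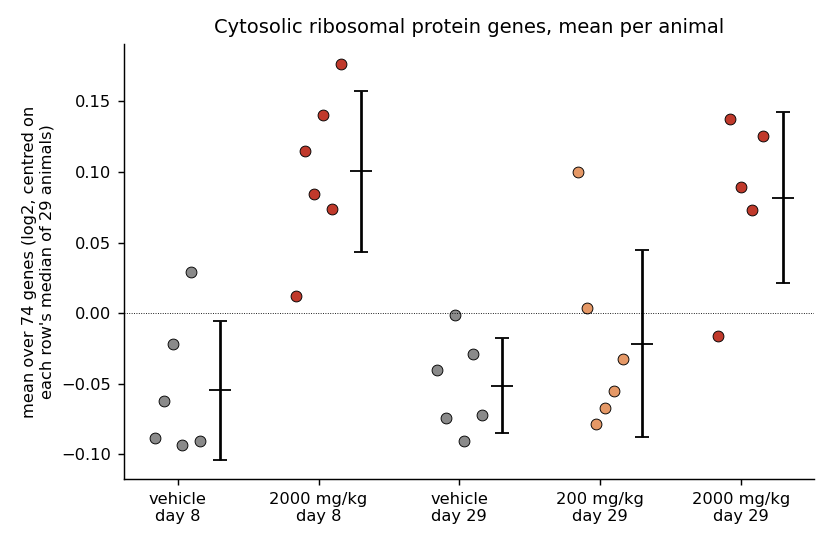
Mean over the 74 ribosomal protein genes in each animal (points, log2 centred on each row's median of 29 animals) by dose and day, with the group mean and its SD. The 6 animals at 2000 mg/kg on day 8 lie between 0.012 and 0.18, and 4 of the 5 on day 29 lie above every vehicle animal of that day.

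At 2000 mg/kg on day 8, 79 of 261 member rows rose and 0 fell at a limma adjusted p below 0.05 (Benjamini-Hochberg over all rows), while 9.32% of all rows rose and 9.32% fell. Among the 7783 rows stored at 8 or more, which are closer to the members in brightness, 19.9% rose and 16.5% fell, against 30.3% of member rows rising. By gene, 28 of 74 rose and 0 fell, with 8.98% and 9.37% over all averaged rows. The median difference was 0.14 over member rows, -0.0049 over all rows and 0.022 over the rows stored at 8 or more. Above 0 lay 253 member rows (96.9%, all rows 47.9%) and 72 genes (all averaged rows 47.3%). Both subunits took part. By name, 17 of 46 large and 11 of 28 small subunit genes rose, with Rpl17-ps16 among the 17 and Rps19bp1 among the 28. Every treated animal lay above every vehicle animal in 46 member rows (5.84% of all rows) and in 17 genes. The share without overlap was not worked out for averaged rows or for rows stored at 8 or more.

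At 2000 mg/kg on day 29, 85 member rows rose and 1 fell, while 12.1% of all rows rose and 9.55% fell. Among rows stored at 8 or more 23.8% rose and 16.9% fell, against 32.6% of member rows rising. By gene, 31 of 74 rose and 0 fell, with 11.9% and 9.58% over all averaged rows. The median difference was 0.14 over member rows, 0.0025 over all rows and 0.037 over the rows stored at 8 or more. Above 0 lay 225 member rows (86.2%, all rows 50.9%) and 62 genes (all averaged rows 50.6%). By subunit name, 20 of 46 large and 11 of 28 small subunit genes rose. Every treated animal lay above every vehicle animal in 46 member rows (6.43% of all rows) and in 17 genes, again without a share for averaged or brighter rows. The single fall was 1 of the 7 rows of Rpl13, a large subunit protein, at -0.49 ± 0.16 (SE, limma adjusted p = 0.031). The other 6 Rpl13 rows lay between -0.0037 and 0.058 and did not pass, and the fall missed the threshold after quantile normalization (adjusted p = 0.060) and with only the groups compared (adjusted p = 0.13). It was also lost in 7 of 11 fits that left out 1 animal: day 29 vehicle replicates 1, 3, 5 and 6 and 2000 mg/kg replicates 2, 4 and 5 (adjusted p from 0.056 to 0.089).

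**Figure D2:**
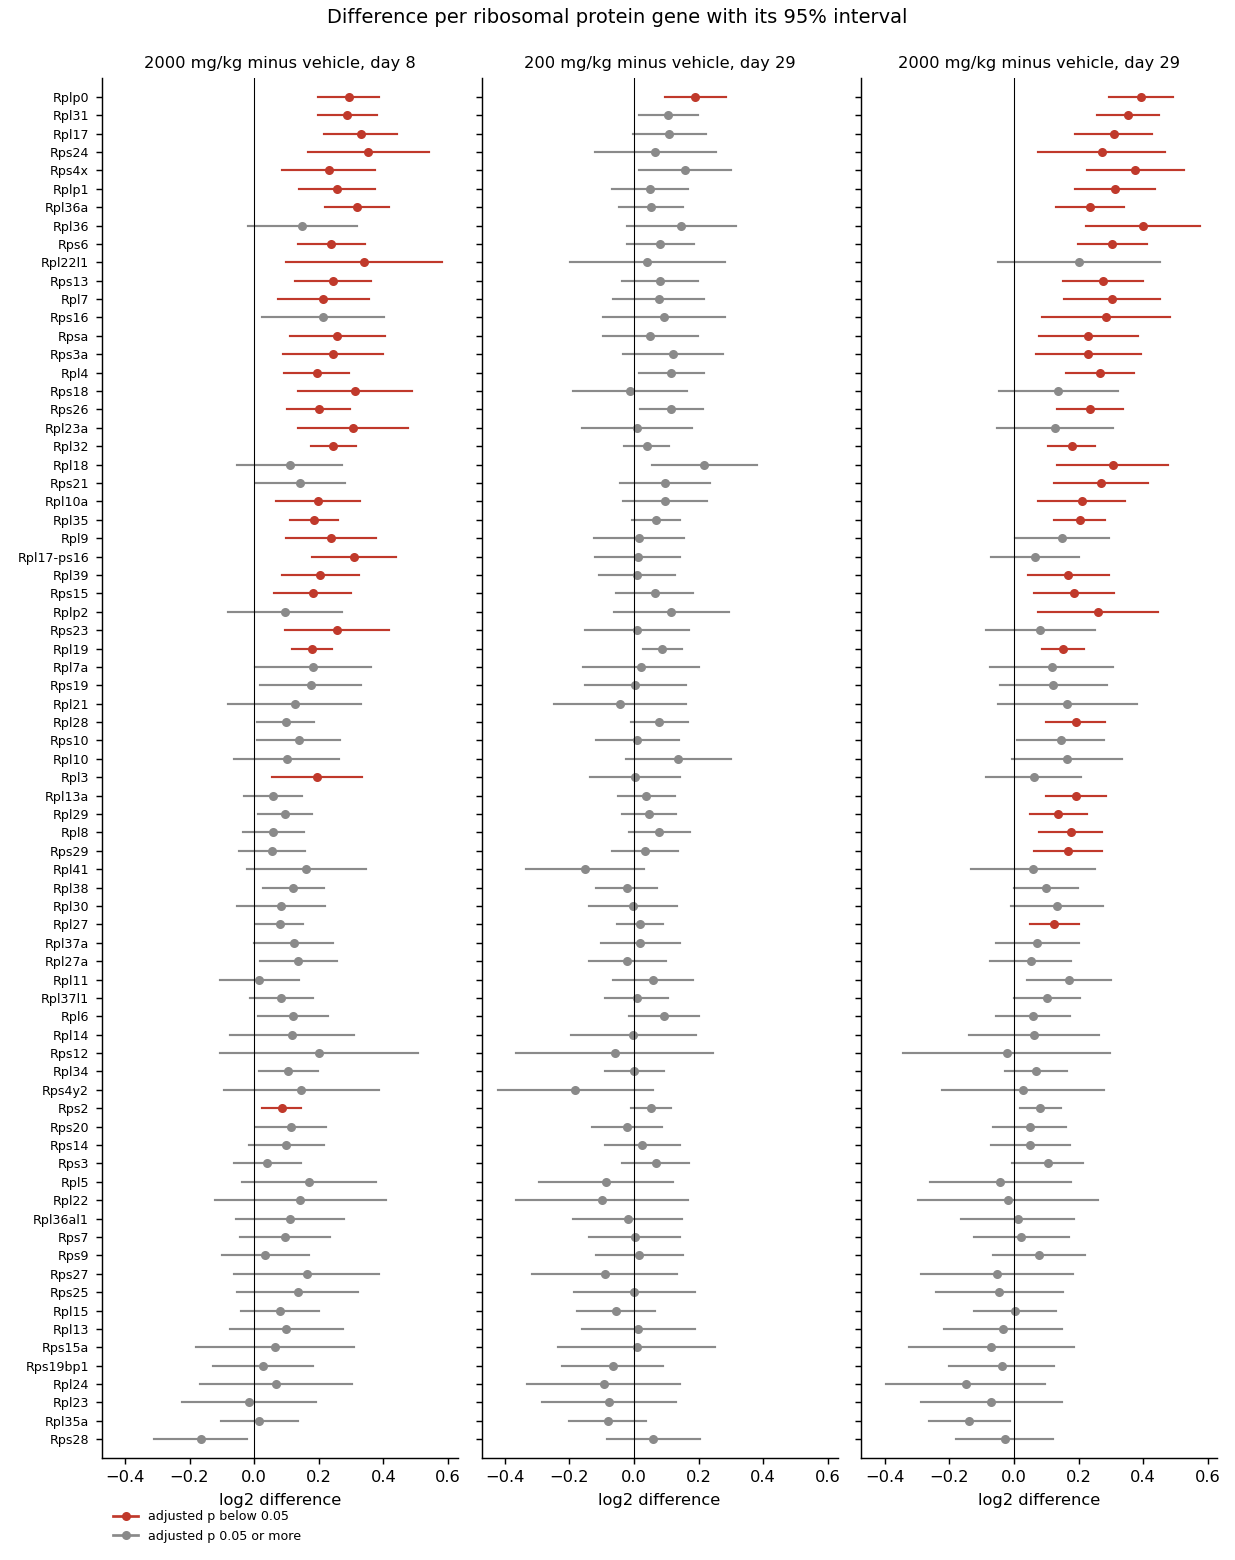
Log2 difference from vehicle of each of the 74 genes (rows of a gene averaged) with its 95% interval, at 2000 mg/kg on day 8, 200 mg/kg on day 29 and 2000 mg/kg on day 29; red marks an adjusted p below 0.05. At 2000 mg/kg 28 genes rose on day 8 and 31 on day 29, and at 200 mg/kg Rplp0 rose.

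The stalk of the large subunit, made of Rplp0, Rplp1 and Rplp2, binds the elongation factors that drive translation. Rplp0, its base, ran from -0.16 to 0.028 with a median of -0.082 in day 8 vehicle animals and from 0.15 to 0.32 with a median of 0.21 at 2000 mg/kg. At day 29 it ran from -0.30 to -0.11 with a median of -0.17 in vehicle animals and from -0.051 to 0.11 with a median of -0.017 at 200 mg/kg, and stood at 0.077, 0.22, 0.13, 0.25 and 0.35 at 2000 mg/kg. No treated animal overlapped the vehicle animals of its day. Rplp0 rose by 0.29 ± 0.046 at day 8 (SE, limma adjusted p = 2.5e-05), or 1.22-fold, and by 0.39 ± 0.048 at day 29 (adjusted p = 5.6e-07), or 1.31-fold. It was also the 1 gene to rise at 200 mg/kg, by 0.19 ± 0.046 (adjusted p = 0.019), although with only those groups compared its rows missed the threshold (adjusted p = 0.088 and 0.091). At that dose its 2 rows were also lost in 7 and 5 of 12 fits that left out 1 animal (adjusted p from 0.051 to 0.10). From 200 to 2000 mg/kg Rplp0 rose by 0.20 ± 0.048 (adjusted p = 0.0055).

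Rplp1 and Rplp2 are the acidic proteins of the stalk's flexible arms. Rplp1 ran from -0.11 to 0.13 with a median of 0.038 in day 8 vehicle animals and from 0.15 to 0.39 with a median of 0.30 at 2000 mg/kg. At day 29 it ran from -0.26 to -0.027 with a median of -0.094 in vehicle animals and stood at -0.014, 0.22, 0.18, 0.20 and 0.42 at 2000 mg/kg. The groups did not overlap on either day, though the lowest treated animal of day 29 was close to the highest vehicle animal. Rplp1 rose by 0.26 ± 0.057 at day 8 (adjusted p = 0.0016) and by 0.31 ± 0.060 at day 29 (adjusted p = 0.00027), and at 200 mg/kg it differed by 0.050 ± 0.057 (adjusted p = 0.81). Rplp2 ran from -0.50 to 0.089 with a median of -0.11 in day 29 vehicle animals and stood at 0.28, 0.16, 0.22, 0.031 and -0.069 at 2000 mg/kg, with overlap. Rplp2 rose by 0.26 ± 0.091 at day 29 (adjusted p = 0.038) and differed by 0.10 ± 0.086 at day 8 (adjusted p = 0.52). With only the groups compared its 3 rows missed the threshold at day 29, the lowest adjusted p being 0.071. All 3 rows also missed it without day 29 vehicle replicate 1 or without 2000 mg/kg replicate 1, 2 or 3 (adjusted p from 0.052 to 0.14).

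Rpl31 is a large subunit protein near the exit of the peptide tunnel. It ran from -0.15 to 0.020 with a median of -0.031 in day 8 vehicle animals and from 0.19 to 0.30 with a median of 0.25 at 2000 mg/kg. At day 29 it ran from -0.20 to -0.082 with a median of -0.13 in vehicle animals and stood at 0.094, 0.24, 0.17, 0.30 and 0.30 at 2000 mg/kg. On both days every treated animal was higher than every vehicle animal. Rpl31 rose by 0.29 ± 0.045 at day 8 (6 of 7 rows, adjusted p = 2.1e-05) and by 0.35 ± 0.047 at day 29 (7 of 7 rows, adjusted p = 2.0e-06). At 200 mg/kg it differed by 0.11 ± 0.045 (adjusted p = 0.26), and 1 of its rows rose, by 0.18 (adjusted p = 0.021).

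Rpl36, another large subunit protein, had the largest difference of the 74 genes at day 29. Vehicle animals of day 29 ran from -0.51 to -0.053 with a median of -0.29, and those at 2000 mg/kg stood at -0.046, 0.14, 0.085, 0.11 and 0.26. The groups were just apart. Rpl36 rose by 0.40 ± 0.086 (10 of 10 rows, adjusted p = 0.001), or 1.32-fold. At day 8 it ran from -0.18 to 0.13 with a median of 0.056 in vehicle animals and from -0.057 to 0.35 with a median of 0.12 at 2000 mg/kg, with overlap, and differed by 0.15 ± 0.082 (adjusted p = 0.25). The day 29 vehicle animals were themselves low: from day 8 to day 29 Rpl36 fell in vehicle animals by 0.30 ± 0.082 (adjusted p = 0.045). This fall was not stable. With only the groups compared, the 5 named Rpl36 rows missed the threshold (adjusted p from 0.068 to 0.088). Each of them was also lost in 7 to 10 of 12 fits that left out 1 animal.

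Rpl17, also at the tunnel exit, ran from -0.068 to 0.022 with a median of -0.013 in day 8 vehicle animals and from 0.26 to 0.39 with a median of 0.30 at 2000 mg/kg. At day 29 it ran from -0.43 to -0.0067 with a median of -0.10 in vehicle animals and stood at 0.031, 0.062, 0.16, 0.21 and 0.28 at 2000 mg/kg. The groups were apart on both days. It rose by 0.33 ± 0.055 at day 8 (adjusted p = 6.1e-05) and by 0.31 ± 0.058 at day 29 (adjusted p = 0.00022). The row named for its pseudogene Rpl17-ps16 rose by 0.31 ± 0.064 at day 8 (adjusted p = 0.0007) and differed by 0.066 ± 0.067 at day 29 (adjusted p = 0.56), and its probes may not be separate from those of Rpl17. Rpl23a, a docking site for factors that meet the emerging peptide, rose by 0.31 ± 0.083 at day 8 (6 of 6 rows, adjusted p = 0.0088) and differed by 0.13 ± 0.087 at day 29 (adjusted p = 0.34). Rpl7 rose by 0.21 ± 0.069 (adjusted p = 0.028) and 0.30 ± 0.072 (adjusted p = 0.0025) on the 2 days. The day 8 call of Rpl7 was lost without vehicle replicate 4 or 2000 mg/kg replicate 3, 4 or 6 (adjusted p from 0.054 to 0.071).

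Among the small subunit proteins, Rps6 is the substrate of the S6 kinases downstream of mTORC1. Its mRNA ran from -0.064 to 0.11 with a median of -0.013 in day 8 vehicle animals and from 0.15 to 0.36 with a median of 0.25 at 2000 mg/kg. At day 29 it ran from -0.24 to -0.014 with a median of -0.13 in vehicle animals and stood at 0.074, 0.11, 0.17, 0.19 and 0.35 at 2000 mg/kg. Treated and vehicle animals were apart on both days. Rps6 rose by 0.24 ± 0.050 at day 8 (adjusted p = 0.00084), by 0.30 ± 0.053 at day 29 (adjusted p = 7.8e-05) and by 0.22 ± 0.053 from 200 to 2000 mg/kg (adjusted p = 0.0056).

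Rps24, whose start above begins with T, had the largest difference of the 74 genes at day 8. It ran from -0.32 to 0.072 with a median of -0.030 in vehicle animals and from 0.0020 to 0.48 with a median of 0.30 at 2000 mg/kg, with overlap at the lowest treated animal. The rise was 0.35 ± 0.091 (adjusted p = 0.006), or 1.28-fold, and at day 29 it was 0.27 ± 0.10 (adjusted p = 0.042). Rps18, in the head of the small subunit, ran from -0.38 to 0.026 with a median of -0.25 in day 8 vehicle animals and from 0.066 to 0.19 with a median of 0.10 at 2000 mg/kg, without overlap. It rose by 0.31 ± 0.086 at day 8 (adjusted p = 0.0096) and differed by 0.14 ± 0.090 at day 29 (adjusted p = 0.32). Rps4x rose by 0.23 ± 0.070 at day 8 (adjusted p = 0.019) and by 0.38 ± 0.073 at day 29 (adjusted p = 0.00033). Rpsa, also known as the laminin receptor, rose by 0.26 ± 0.071 at day 8 (adjusted p = 0.01). For Rpsa, 1 of its 2 rows lost the day 8 call in 7 of 12 fits that left out 1 animal, vehicle replicates 1, 4 and 6 and 2000 mg/kg replicates 1, 3, 4 and 6 (adjusted p from 0.058 to 0.12), and with the replicate block (adjusted p = 0.068). At day 29 Rpsa stood at -0.15, 0.23, 0.074, 0.15 and 0.46 in treated animals. Vehicle animals ran from -0.17 to 0.0024 with a median of -0.055, so 1 treated animal lay inside their range. The rise was 0.23 ± 0.075 (1 of 2 rows, adjusted p = 0.026).

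**Figure D3:**
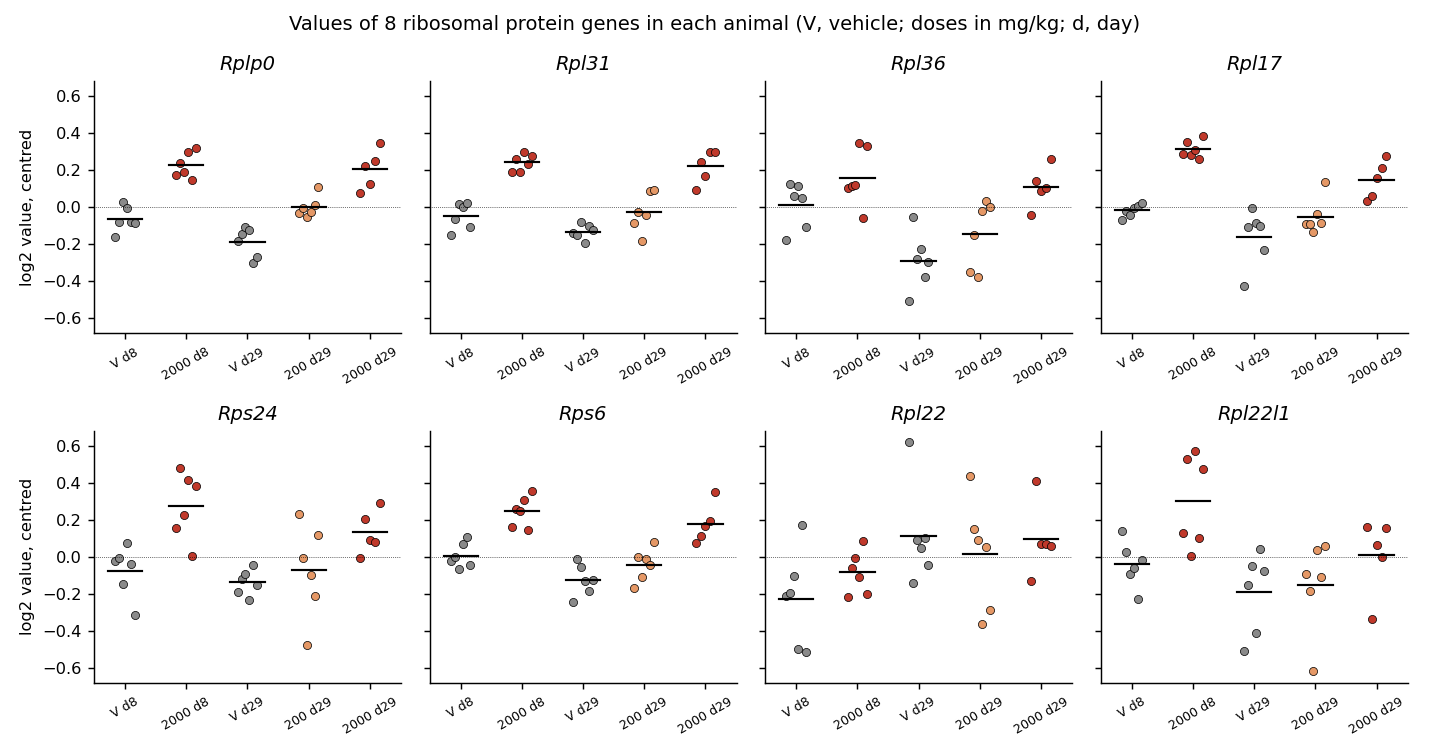
Values of 8 genes in each animal (points, log2 centred; V, vehicle), with the group mean as a line. Rplp0, Rpl31, Rpl17 and Rps6 at 2000 mg/kg lie clear of vehicle on both days, while Rpl22 and Rpl22l1 spread widely, with Rpl22 at 0.62 in 1 day 29 vehicle animal.

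Some ribosomal proteins have a paralog that can stand in for them. Rpl22 and Rpl22l1 are such a pair, and Rpl22 is known to repress its paralog. Rpl22l1 ran from -0.23 to 0.14 with a median of -0.038 in day 8 vehicle animals and from 0.0029 to 0.57 with a median of 0.30 at 2000 mg/kg, and rose by 0.34 ± 0.12 (adjusted p = 0.042). This call of Rpl22l1 was lost in 8 of 12 fits that left out 1 animal, vehicle replicates 2 to 6 and 2000 mg/kg replicates 2, 4 and 6 (adjusted p from 0.053 to 0.11), and with the replicate block (adjusted p = 0.051). Rpl22 ran from -0.51 to 0.17 with a median of -0.21 and from -0.22 to 0.086 with a median of -0.083 in the same groups and differed by 0.14 ± 0.13 (adjusted p = 0.52). Both spread widely and overlapped between the groups. At day 29 Rpl22l1 differed by 0.20 ± 0.12 (adjusted p = 0.28) and Rpl22 by -0.018 ± 0.14 (adjusted p = 0.95, 95% interval -0.30 to 0.26). The difference between the paralogs was not tested.

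Rpl36a rose by 0.32 ± 0.048 at day 8 (adjusted p = 1.7e-05) and 0.24 ± 0.051 at day 29 (adjusted p = 0.001), while Rpl36al1 differed by 0.11 ± 0.082 (adjusted p = 0.41) and 0.011 ± 0.086 (adjusted p = 0.95). Rpl39, a small protein of the tunnel wall, rose by 0.20 ± 0.058 at day 8 (7 of 7 rows, adjusted p = 0.012) and by 0.17 ± 0.061 at day 29 (3 of 7 rows, adjusted p = 0.048). At day 29 the 3 called Rpl39 rows missed the threshold with only the groups compared (adjusted p = 0.092, 0.089 and 0.053) and without vehicle replicate 4 or 2000 mg/kg replicate 5. At day 8 some of its rows were lost without vehicle replicate 2, 4 or 5 or 2000 mg/kg replicate 2 (adjusted p from 0.051 to 0.070). Rpl3, near the catalytic centre, rose by 0.19 ± 0.068 at day 8 (adjusted p = 0.047), which missed the threshold after quantile normalization (adjusted p = 0.054), and differed by 0.061 ± 0.072 at day 29 (adjusted p = 0.62). The Rpl3 call was also lost in 9 of 12 fits that left out 1 animal, all but those of vehicle replicates 1 and 6 and 2000 mg/kg replicate 1 (adjusted p from 0.059 to 0.15). Rpl10, which completes the large subunit late in its assembly, differed by 0.10 ± 0.079 (adjusted p = 0.45) and 0.16 ± 0.083 (adjusted p = 0.17), and Rps27 by 0.16 ± 0.11 (adjusted p = 0.36) and -0.051 ± 0.11 (adjusted p = 0.81). Rps27a, Rps27l, Rpl3l, Rpl7l1, Rpl36al, Rpl39l and Rpl10l were not analysed here.

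Of the 74 genes, 35 rose on neither day at 2000 mg/kg. Rps28, a small subunit protein, ran from -0.10 to 0.12 with a median of -0.063 in day 8 vehicle animals and from -0.37 to -0.0084 with a median of -0.19 at 2000 mg/kg, a difference of -0.17 ± 0.070 that did not pass (adjusted p = 0.11, 95% interval -0.31 to -0.022). Rpl35a differed by 0.015 ± 0.058 at day 8 (adjusted p = 0.91) and by -0.14 ± 0.061 at day 29 (adjusted p = 0.11, 95% interval -0.26 to -0.013), with 0 of its 9 rows passing. At day 29 the genes below 0 were Rpl13, Rpl22, Rpl23, Rpl24, Rpl35a, Rpl5, Rps12, Rps15a, Rps19bp1, Rps25, Rps27 and Rps28, with differences from -0.15 to -0.018 that did not pass. In all of these but Rpl35a, Rps25 and Rps27, replicate 1 was the highest day 29 vehicle animal, from 0.15 in Rps28 to 0.68 in Rps12. Their differences without this animal were not worked out by gene. Rps19bp1, which is no ribosomal protein, differed by 0.028 ± 0.076 at day 8 (adjusted p = 0.86).

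The spread within groups, as a pooled SD, ran from 0.040 to 0.27 among the genes with a median of 0.12. The widest were Rps12 (0.27) and Rpl22 (0.24). For 39 of the 74 genes the animal farthest from its group mean was replicate 1 of day 29 vehicle or replicate 1 of 200 mg/kg. Rps12 stood at 0.68 and 0.64 in these, against group medians of 0.097 and 0.023. Rpl24 stood at 0.58 and 0.59 (medians 0.17 and 0.033). Other members were low in both: Rpl21 stood at -0.63 and -0.30, and Rps16 at -0.66 and -0.34. Without the vehicle animal 74 member rows rose and 0 fell at 2000 mg/kg on day 29. Without the 200 mg/kg animal the median of the member rows at that dose moved from 0.022 to -0.0039, and 3 rows were still called.

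The differences at 2000 mg/kg on the 2 days share no animals. Of the 28 genes that rose at day 8 and the 31 that rose at day 29, 20 rose on both. That is 71.4% of the first and 64.5% of the second. By row, 45 rose on both, 57.0% of the 79 of day 8 and 52.9% of the 85 of day 29. The overlap over all rows was not worked out, so these shares are not shown to be particular to the members. Besides Rpsa, Rplp0, Rplp1 and the others described, the 20 genes include Rpl4, Rpl10a, Rpl19, Rpl32, Rpl35, Rps3a, Rps13, Rps15 and Rps26. Over the 74 genes the differences of the days had a Pearson r of 0.53 and a Spearman rho of 0.52, as a description, since genes share the animals and arrays. The test of the change of the effect between days called 0 member rows with limma (16 at an unadjusted p below 0.05, against 14.7% of all rows), while 0.472% of all rows were higher and 0.304% lower (0.668% and 0.501% of rows stored at 8 or more). For Rpl36 the change was 0.25 (95% interval 0.0063 to 0.50, adjusted p = 0.33) and for Rpl17-ps16 -0.24 (95% interval -0.43 to -0.055, adjusted p = 0.21). A call on 1 day alone therefore does not show a change between days.

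**Figure D4:**
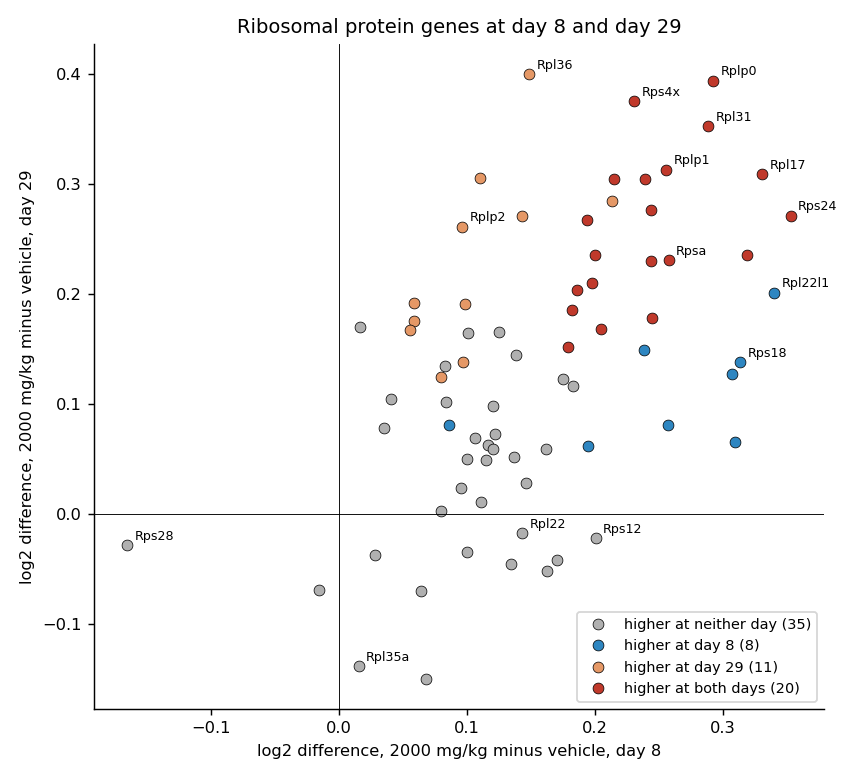
Log2 difference between 2000 mg/kg and vehicle for each of the 74 genes at day 8 (horizontal) and day 29 (vertical), coloured by the days on which the gene rose. The 20 genes that rose on both days lie above 0 on both axes, and Rps28 lies lowest at day 8, at -0.17.

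At 200 mg/kg on day 29, 3 member rows rose and 0 fell, namely the 2 rows of Rplp0 and 1 of Rpl31. Their share of 1.15% was no higher than the 1.37% of all rows that rose (1.42% fell) or the 3.15% of rows stored at 8 or more (3.06% fell). By gene 1 rose and 0 fell, against 1.36% and 1.45% of all averaged rows. Above 0 lay 170 member rows (65.1%, all rows 51.8%) and 55 genes (averaged rows 51.7%), with a median of 0.022 over rows. The 3 calls became 0 without 200 mg/kg replicate 5 or 6, and 1 without day 29 vehicle replicate 5 or 6. An Rplp0 row was also lost without day 29 vehicle replicate 1 or without 200 mg/kg replicate 2, 3 or 4 (adjusted p from 0.051 to 0.052).

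From 200 to 2000 mg/kg at day 29, 30 member rows rose and 0 fell. Their share of 11.5% was above the 6.05% of all rows that rose (3.84% fell) and below the 12.5% of rows stored at 8 or more (7.45% fell). By gene 11 rose and 0 fell (5.95% and 3.9% of averaged rows): Rplp0, Rplp1, Rpl7, Rpl13a, Rpl17, Rpl31, Rpl32, Rpl35, Rpl36a, Rps6 and Rps13. The 1 row of Rpl7 was lost in 8 of 11 fits that left out 1 animal. With only the groups compared, the rows of Rpl7 (adjusted p = 0.052) and Rpl36a (adjusted p = 0.068 and 0.065) and 1 row of Rplp0 (adjusted p = 0.058) missed the threshold. The rows of Rplp1 and Rps6 passed in all these fits. Above 0 lay 237 member rows (90.8%, all rows 50.5%) and 67 genes (averaged rows 50.2%). Without 200 mg/kg replicate 3 or 2000 mg/kg replicate 2, 4 or 5 the 30 calls became 18, 18, 16 and 14. These animals at 2000 mg/kg are those also set against vehicle.

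In vehicle animals, 0 member rows rose and 6 fell from day 8 to day 29, all of Rpl36, while 0.962% of all rows rose and 1.77% fell (1.62% and 3.05% of rows stored at 8 or more). By gene 0 rose and 1 fell (0.964% and 1.77% of averaged rows). Above 0 lay 123 member rows (47.1%, all rows 51.6%) and 33 genes (averaged rows 51.7%). Every single animal mattered to the 6 calls. Without day 8 vehicle replicate 2 or 4, or day 29 vehicle replicate 1, 4, 5 or 6, there were 0. Without day 8 vehicle replicate 3, 5 or 6 or day 29 vehicle replicate 3 there were 1 or 2. Without day 8 vehicle replicate 1 there were 10, and without day 29 vehicle replicate 2 there were 21, of which 7 were higher and 14 lower.

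Other genes of translation and ribosome assembly were counted beside the members. Of 37 rows of other translation genes known for TOP starts, 17 rose and 0 fell at day 8 and 15 rose and 5 fell at day 29, with median differences of 0.16 and 0.10. The shares rising, 45.9% and 40.5%, stand beside 19.9% and 23.8% of rows stored at 8 or more. Nap1l1, a histone chaperone, rose by 0.76 at day 8 (adjusted p = 3.2e-11) and 0.46 at day 29 (adjusted p = 7.6e-07). Eif4a2, an RNA helicase of translation initiation, fell by 0.33 at day 29 (adjusted p = 0.0024). Of 80 rows for rRNA transcription and ribosome assembly, 32 rose and 0 fell at day 8 and 22 rose and 2 fell at day 29, with medians of 0.20 and 0.12. Their shares rising were 40% and 27.5%. Nop56, of the snoRNPs that guide rRNA methylation, rose by 0.52 (adjusted p = 0.0020) and 0.54 (adjusted p = 0.0017). Rpf2, which helps place the 5S particle, rose by 0.60 (adjusted p = 0.00015) and 0.46 (adjusted p = 0.0037). At 200 mg/kg 5 of the 80 rows (6.25%) rose and 0 fell, where 1.37% of all rows and 3.15% of rows stored at 8 or more rose. They were led by Tsr1, a factor of small subunit maturation, at 0.43 (adjusted p = 0.00038). From 200 to 2000 mg/kg 2 of the 80 rows rose (2.5%), below the 6.05% of all rows and 12.5% of rows stored at 8 or more.

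Mitochondrial ribosomal proteins, which serve the ribosomes inside mitochondria, rose in 17 (23.9%) and fell in 4 of 71 rows at day 8, and rose in 19 (26.8%) and fell in 4 at day 29. These shares were above the 9.32% and 12.1% of all rows that rose and close to the 19.9% and 23.8% of rows stored at 8 or more. Mrpl49 rose by 0.66 (adjusted p = 0.00014) and 0.84 (adjusted p = 1.0e-05), and Mrpl36 fell by 0.23 (adjusted p = 0.038) and 0.25 (adjusted p = 0.022). Of 33 rows for mTORC1, Myc and the control of TOP mRNA translation, 7 rose (21.2%) and 1 fell at day 8 and 9 rose (27.3%) and 1 fell at day 29, also close to the rows stored at 8 or more. Eif4ebp1, a brake on cap-dependent initiation, rose by 0.50 (adjusted p = 3.0e-07) and 0.48 (adjusted p = 1.4e-06). Eif4e, the cap-binding protein that Eif4ebp1 holds back, rose by 0.28 at day 8 (adjusted p = 0.0015). Ddit4, an inhibitor of mTORC1, rose by 0.94 at day 8 (adjusted p = 5.8e-05), and Sesn3, another, by 0.61 at day 29 (adjusted p = 2.3e-06). Mxi1, an antagonist of Myc, rose by 0.43 (adjusted p = 0.0097) and 0.50 (adjusted p = 0.0034), and Eif2ak4, a kinase that senses amino acid shortage, by 0.31 at day 29 (adjusted p = 6.8e-05). Larp4b, an RNA-binding protein of the La-related family, fell by 0.26 (adjusted p = 0.0043) and 0.27 (adjusted p = 0.0035).

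**Figure D5:**
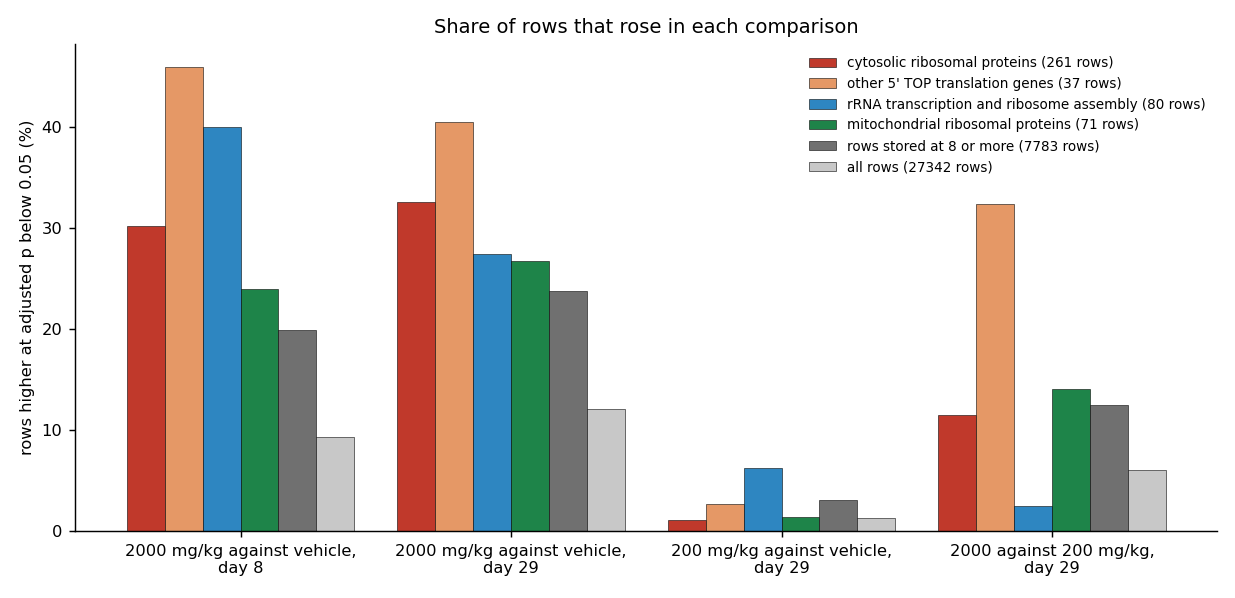
Share of rows that rose at an adjusted p below 0.05 (vertical, percent) in 4 comparisons, for the 261 member rows, 3 other lists, the 7783 rows stored at 8 or more and all 27342 rows. At 2000 mg/kg the members stand at 30.3% and 32.6%, above the rows stored at 8 or more at 19.9% and 23.8%, while at 200 mg/kg they stand at 1.15%.

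Markers of liver cell types were counted in the same comparisons. At 2000 mg/kg on day 8, 9.32% of all rows rose and 9.32% fell (19.9% and 16.5% of rows stored at 8 or more). On day 29, 12.1% of all rows rose and 9.55% fell (23.8% and 16.9%). Of 14 Kupffer cell and macrophage rows, 12 fell and 1 rose at 2000 mg/kg on day 8, where their mean ran from 0.30 to 1.09 in vehicle animals and from -0.58 to 0.082 in treated ones. In vehicle animals 11 of these 14 rows were lower at day 29 than at day 8 (1.77% of all rows). At day 29, 0 of the 14 fell and 1 rose at 2000 mg/kg. Their means ran from -0.49 to 0.66 in vehicle and from -0.72 to 0.45 in treated animals. Of 15 T, B and NK cell rows 7 fell at day 8 and 0 at day 29. Of 9 hepatocyte rows 6 fell at day 8, with means from -0.12 to 0.072 in vehicle and from -0.22 to -0.054 in treated animals, and 3 fell at day 29, with means from 0.013 to 0.076 and from -0.11 to -0.044. Of 11 stellate cell rows 3 fell and 1 rose at day 8, and 9 fell at day 29, with means from 0.029 to 0.50 in vehicle and from -0.41 to -0.25 in treated animals. Of 9 erythroid rows 3 fell and 1 rose at day 8 and 0 changed at day 29, and of 5 endothelial rows 2 fell at day 8 and 1 rose at day 29. Of 4 bile duct rows that of Epcam rose on both days. Of 17 proliferation rows 1 rose and 2 fell at day 8, and 2 rose and 1 fell at day 29. The proliferation shares, 5.88% rising and 11.8% falling at day 8 and the reverse at day 29, were near those of all rows. The part of these marker shifts in the members' rise was not tested.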

How the data were processed

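Affymetrix whole-transcript arrays measured liver RNA of 29 rats in 5 groups. The log2 values used here were deposited by the authors as a single table of 27342 rows, each already centred on its median over the arrays. Log base 2 was taken from the size of the values, since the base is not given in the sources used here, nor are the build and the normalization between arrays. PLIER and MAS5 are named in the submitters' processing notes, with no role or version. Rows were named through the platform's symbols, leaving unnamed those with several (323) or none (11922).

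limma 3.58.1 in R 4.3.3 fitted 1 mean per group to all 29 animals, with eBayes and Benjamini-Hochberg adjustment over all rows, two-sided, at 0.05. The script was tested on simulated data. Averaging the rows of a gene was an alternative chosen after seeing the data. The members and lists were chosen with earlier results of these data known. Named genes are the members with the largest calls in each comparison (up to 10 each way against vehicle, 5 otherwise), the stalk proteins, Rpsa, Rps6 and paralog pairs, and up to 4 called genes each way of each other list. Rps4x was named outside this rule and is not among the named rows counted below. Rps28, Rpl35a, Rps12 and the other genes named for not rising, for a wide spread or as shared between days were chosen after their values were seen. Alternatives were other scalings, row filters, variance models, a stricter threshold and leaving out animals. The number of arrays limits the precision. The sources used here give no slide or scan, so batches were not tested.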

Additional observations from a re-analysis of the deposited data

Results flagged for a closer look

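In 115 sets of a named gene or member mean in 1 group, 6 had an animal far from the others by Dixon's test, and chance alone gives about 1 in 20. Rpl10 stood at 0.21 in day 8 vehicle replicate 6, against a group median of -0.028. Rpl22 stood at 0.62 in day 29 vehicle replicate 1 (median 0.070). Rpl17 stood at 0.14 in 200 mg/kg replicate 6 (median -0.089), and Rpl22l1 at -0.62 in 200 mg/kg replicate 3 (median -0.10). In day 8 replicate 1 at 2000 mg/kg, Rpl13 stood at -0.16 (median 0.050) and Rpl3 at -0.021 (median 0.16).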

How the results depend on the processing

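For 2000 mg/kg against vehicle, day 8, and 2000 mg/kg against vehicle, day 29, the counts of member rows called stayed within 1.5 times of 79 and 86 under the settings run over rows, except an adjusted p of 0.01, which gave 39 and 56. Between 200 and 2000 mg/kg the count of 30 became 11 at 0.01 and 14 with only the groups compared. At 200 mg/kg the 3 calls became 0 under each of these settings. For vehicle animals between days, the 6 calls became 15 with array weights, 11 among rows stored at 8 or more, 1 gene with rows averaged, and 0 with only the groups compared and at 0.01. The change of the effect between days had 0 calls throughout. Leaving out 1 animal gave 58 to 88 calls at day 8, 68 to 91 at day 29, 0 to 4 at 200 mg/kg, 14 to 44 between doses and 0 to 21 between vehicle groups. No named row reversed; of those called, 18 of 27 (day 8) and 18 of 25 (day 29) passed under every setting run at 0.05, leaving out animals included, as did 0 of 3 at 200 mg/kg, 5 of 11 between doses and 0 of 5 between vehicle groups. The variance trend was not run, since the values hold no level.

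Same-numbered animals correlated both above and below 0, so the replicate numbers showed no common pairing. Replicate 1 of day 29 vehicle and replicate 1 of 200 mg/kg correlated at 0.85 over member rows and 0.30 over all rows. Whether these animals share a factor such as a run was not tested. With the replicate block, 76 (day 8), 91 (day 29), 3 (200 mg/kg), 39 (between doses), 10 (vehicle) and 0 rows (change between days) were called.

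The limits are the unknown scaling between arrays, rows of a gene that share sequence, and the small size of the differences, at most 1.32-fold upward by gene.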
